A study of Homo sapiens with 8 samples.

Results

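A set of 9 genes of pericellular proteolysis was followed in ovarian cancer cells in which the long noncoding RNA UCA1 had been silenced. They are the plasminogen activators PLAU and PLAT, the PLAU receptor PLAUR, the activator inhibitor SERPINE2, the membrane-type matrix metalloproteinases MMP14 and MMP15, and the tissue inhibitors of metalloproteinases TIMP1, TIMP2 and TIMP3. The members were all non-control probes whose RefSeq accession maps to 1 of these 9 symbols, without regard to their values, which gave 10 probes on 19 spots per array. Of the 9 genes, 5 passed the detection filter described below and belong to the 15454 genes tested. The cells were OAW42-R, a cisplatin-resistant derivative of the serous ovarian cancer line OAW42, and all groups share this line and its resistance. They were transfected at 20 nM with a Lincode pool of non-targeting siRNAs (sictrl) or with the Lincode UCA1 siRNAs number 2 and number 4 (siUCA1), with InterferIn as the reagent. Each condition had 4 one-color Agilent arrays, named A1, M2, A2 and A3 in both, and the labels put RNA extraction at 24 h. A longer time stands in the paper's text. Only 1 cell line was used, both UCA1 siRNAs were given to the same cells, and no sample received a single one of them.

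Plasminogen activators are serine proteases that cut the zymogen plasminogen into plasmin, a broad protease that degrades fibrin and matrix proteins and can activate pro-metalloproteinases. PLAU (urokinase) acts mainly at the cell surface on its receptor PLAUR, PLAT (tissue plasminogen activator) mainly on fibrin, and serpins such as SERPINE2 block both. Membrane-type metalloproteinases cleave matrix and other surface proteins, and TIMPs bind the catalytic site of metalloproteinases. TIMP2 also has a second role, since together with MMP14 it brings pro-MMP2 to the surface for activation. In ovarian carcinoma they have been studied in connection with invasion of the peritoneum.

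All 8 arrays lay on 1 slide and were scanned in 1 run. Between 20858 and 24039 spots per array were well above background. The fit of a brightness trend over the array surface had a root mean square of 0.321 on sictrl A3 and 0.287 on siUCA1 A1, against 0.0737 to 0.0943 on the others, so values without these arrays are given where they matter. UCA1 itself was lower in siUCA1 by a log2 difference of -5.04 (standard error 0.29, limma adjusted p = 0.000122), with all 4 siUCA1 arrays below all 4 sictrl arrays. Of 10 markers of ovarian carcinoma and epithelium, 7 were well above background on all 8 arrays (PAX8, EPCAM, KRT7, KRT8, KRT18, CDH1 and SOX17), and WT1, MUC16 and MSLN on none. CDH1 was called lower (-0.81, adjusted p = 0.0149) and SOX17 higher (0.61, adjusted p = 0.00645). Of 6 fibroblast markers, none was above background on all 8 arrays and 5 were on none. Of 4 endothelial markers 1 (VWF) and of 5 leukocyte markers 2 were detected on all 8 arrays, and the leukocyte marker CD14 was called higher (log2 difference 0.70, adjusted p = 0.0478). Only the OAW42-R line was cultured, so a signal of such a marker does not stand for another cell type.

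The members differed in whether they were detected. Values are log2 processed signals relative to the 75th percentile of the array's own spots, so that a value of 0 lies at that percentile, and levels of different probes are not compared with each other. The detection filter asked of a probe that every array of 1 condition or the other gave a signal well above background. PLAT, MMP15, TIMP1 and TIMP2 were above background on all 8 arrays. SERPINE2 was above background on all 4 siUCA1 arrays and on 3 of 4 sictrl arrays, and thus passed only through siUCA1. The PLAU probe for NM_002658 was above background on 3 arrays of each condition and was left out of the fit. A second PLAU probe, for NM_001145031, was above background on 1 of 8 arrays (sictrl A1). PLAUR, MMP14 and TIMP3 reached that criterion on none of the 8 arrays. Their intensities reached at most 6.83, 9.41 and 9.32, while the lowest signal well above background was between 10.76 and 25.91 depending on the array. For these 3 genes no change could be measured in either direction, and the arrays do not show whether the transcripts were absent.

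**Figure D1:**
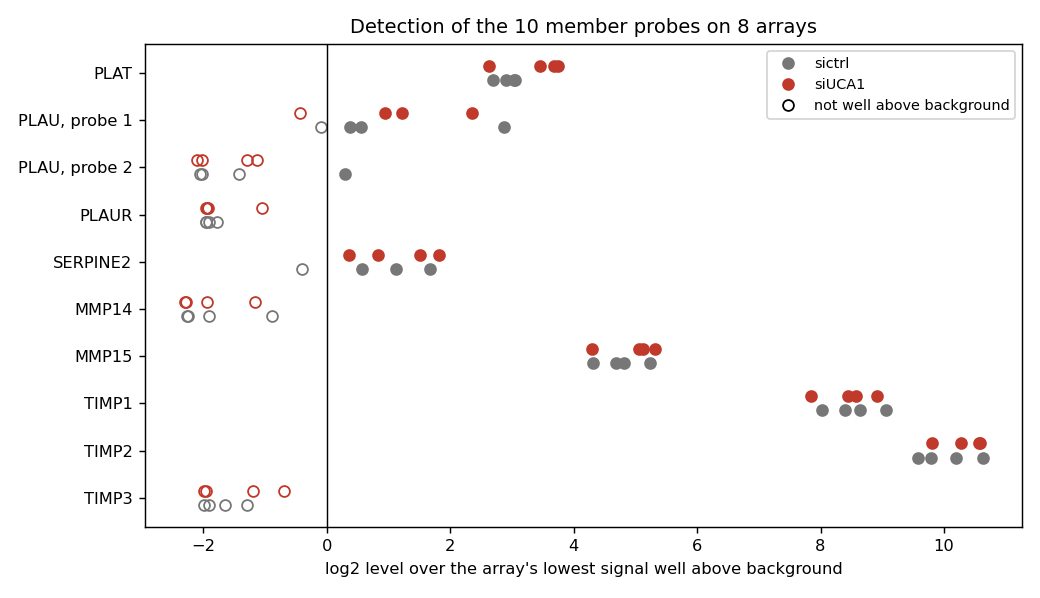
Each point is 1 probe on 1 array, with the log2 level over the lowest signal well above background on that array on the x axis (0 is that limit) and the 10 member probes on the y axis. PLAU probe 1 is for NM_002658 and probe 2 for NM_001145031. Filled points are well above background, open points are not, grey is sictrl and red is siUCA1. PLAT, MMP15, TIMP1 and TIMP2 are filled on all 8 arrays, and PLAUR, MMP14 and TIMP3 are open on all 8.

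Genes with a Benjamini-Hochberg adjusted p under 0.05 in limma, over all genes tested, are called DEGs. Of the 9 members 2 were called, PLAT and MMP15, both higher in siUCA1, and 0 were called lower in limma (0 also at an unadjusted p under 0.05, beside 3 higher). Across all genes tested 5.72% were called higher, 5.85% lower and 11.6% in either direction. At an unadjusted limma p under 0.05 there were 4264 of the 15454 genes tested, in either direction. When arrays were scaled to their median instead of the 75th percentile, no member was called, and the share of higher genes among all DEGs was 21.3% in place of 49.4%. The groups of 4 arrays did not overlap for PLAT, MMP15 and TIMP2, as they did not for 20.9% of all genes. The 4 members detected on all 8 arrays (PLAT, MMP15, TIMP1 and TIMP2) had log2 differences from 0.12 to 0.67. SERPINE2 passed the detection filter through siUCA1 only, so its direction was fixed in part by the filter. Because RNA was taken from whole cultures, a larger share of expressing cells and more RNA per cell cannot be told apart.

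**Figure D2:**
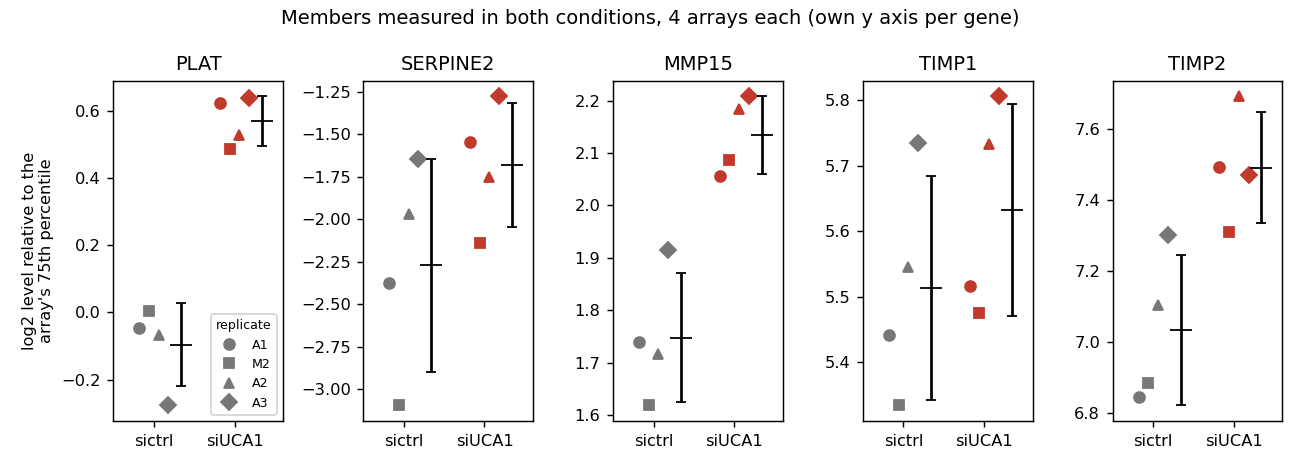
Log2 level relative to the array's 75th percentile (y axis, a separate scale for each gene) for the 5 members tested, in sictrl and siUCA1. Each marker shape is 1 replicate name, and the black bar is the mean ± SD over 4 arrays. The sictrl and siUCA1 points are apart for PLAT, MMP15 and, by 0.006, TIMP2, and overlap for SERPINE2 and TIMP1.

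PLAT, the tissue-type plasminogen activator, rose 1.59-fold on UCA1 silencing. In sictrl its log2 level (NM_000930) was -0.05 on A1, 0.01 on M2, -0.07 on A2 and -0.28 on A3. In siUCA1 it was 0.62 on A1, 0.49 on M2, 0.53 on A2 and 0.64 on A3. The conditions were 0.48 apart at their closest, between sictrl M2 and siUCA1 M2. The means were -0.10 ± 0.12 and 0.57 ± 0.07 (SD, n = 4), a log2 difference of 0.67 (standard error 0.10, 95% interval 0.45 to 0.88, limma adjusted p = 0.00529). A two-sided exact permutation test over the 8 arrays gave p = 0.0286, the smallest that 4 arrays against 4 allow.

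The PLAT probe was printed 10 times on each array, so its level could be read at several positions. Taken spot by spot, the log2 difference between the conditions ranged from 0.54 to 0.85, with a median of 0.66, and was thus positive at all 10 positions. The SD among the spots was 0.49 on sictrl A3 and 0.49 on siUCA1 A1, the arrays with the largest surface trend, and 0.08 to 0.27 on the others. Without sictrl A3 the log2 difference was 0.60 (adjusted p = 0.00773) and without siUCA1 A1 it was 0.65 (adjusted p = 0.00777). With the remaining surface trend removed it was 0.63 (adjusted p = 0.00527). In row 1 of the slide the difference was 0.66 and in row 2 it was 0.67. Each row held 2 arrays per condition, with different replicate names for sictrl and siUCA1. The call was not kept under normexp background correction (0.43, adjusted p = 0.0575), median scaling (0.57, adjusted p = 0.198) or without the detection filter (adjusted p = 0.15).

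PLAU, the urokinase gene, was close to the detection limit. In sictrl the log2 level of its NM_002658 probe was -3.04 on A1, -2.32 on M2, -2.54 on A2 and -0.45 on A3. In siUCA1 it was -1.84 on A1, -2.02 on M2, -2.54 on A2 and -0.74 on A3. Replicate A3 was the highest of both conditions, with intensities of 78.8 and 70.7 against 16.4 to 29.7 on the other 6 arrays. The difference between the condition means, 0.30, was smaller than the spread within either (SD 1.13 and 0.76, n = 4, two-sided exact permutation test p = 0.6). Without sictrl A1 the difference was -0.02 (standard error 0.58, limma adjusted p = 0.992), and without siUCA1 A2 it was 0.55 (standard error 0.61, adjusted p = 0.645). The position of PLAU beside PLAT was not tested in the fit over all 8 arrays, where PLAU did not pass the detection filter.

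SERPINE2, the protease nexin that inhibits PLAU, PLAT and thrombin, was also dim. Its log2 level (NM_006216) in sictrl was -2.37 on A1, -3.10 on M2, -1.97 on A2 and -1.64 on A3. In siUCA1 it was -1.55 on A1, -2.14 on M2, -1.75 on A2 and -1.28 on A3. The lowest value, sictrl M2, was not well above background, and the conditions overlapped. The log2 difference was 0.59 (standard error 0.31, 95% interval -0.11 to 1.29, limma adjusted p = 0.251), and an exact permutation test gave p = 0.171. With 1 array left out it ranged from 0.32 (without sictrl M2) to 0.80 (without sictrl A3, adjusted p = 0.111) and was called in none of the 8 fits. It was 0.22 under normexp background correction, and 1.12 in row 1 of the slide against 0.06 in row 2. Row 1 held sictrl M2 and A2 and siUCA1 A1 and A3, so row and replicate name cannot be told apart. Between arrays of the same name the difference was 0.827 (A1), 0.956 (M2), 0.22 (A2) and 0.367 (A3). PLG, which encodes plasminogen, gave no signal well above background on the 8 arrays, as PLAUR gave none.

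**Figure D3:**
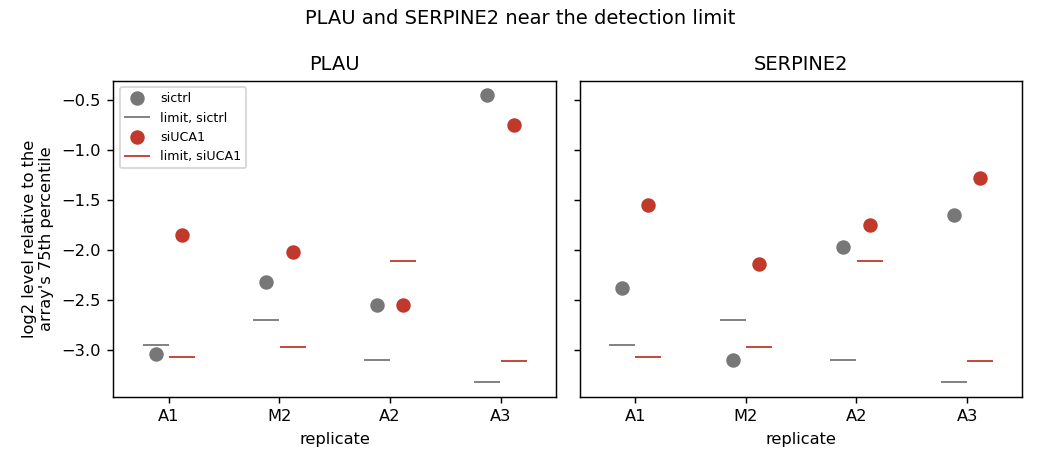
Log2 level relative to the array's 75th percentile (y axis) of the PLAU (NM_002658) and SERPINE2 probes by replicate name (x axis), with sictrl in grey and siUCA1 in red. Short bars mark the detection limit of each array. PLAU is highest on replicate A3 in both conditions, at -0.45 and -0.74, and its sictrl A1 and siUCA1 A2 points lie under their limits.

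MMP15, a membrane-type matrix metalloproteinase (MT2-MMP), rose 1.31-fold. Its log2 level (NM_002428) in sictrl was 1.74 on A1, 1.62 on M2, 1.72 on A2 and 1.91 on A3. In siUCA1 it was 2.06 on A1, 2.09 on M2, 2.19 on A2 and 2.21 on A3. All siUCA1 arrays were above all sictrl arrays, with 0.14 between sictrl A3 and siUCA1 A1. The means were 1.75 ± 0.12 and 2.13 ± 0.07 (SD, n = 4), a log2 difference of 0.39 (standard error 0.10, 95% interval 0.17 to 0.61, limma adjusted p = 0.0354), with an exact permutation p = 0.0286. The call was close to the threshold. It was kept in only 2 of the 8 fits that left out 1 array, those without sictrl A3 (0.44, adjusted p = 0.0188) and without siUCA1 A1 (0.41, adjusted p = 0.033). It was lost without sictrl A1, M2 or A2 and without siUCA1 M2, A2 or A3, where the log2 difference was 0.35 to 0.40 with adjusted p from 0.079 to 0.11. It was also lost under normexp (0.31, adjusted p = 0.413), under median scaling (0.29, adjusted p = 0.558) and without the detection filter (adjusted p = 0.507). With the slide row as a block the adjusted p was 0.0562. The difference was 0.47 in row 1 and 0.31 in row 2, with different replicate names for sictrl and siUCA1 in each row. MMP14, the other membrane-type member, was not detected, so the pair could not be compared.

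RefSeq promoter windows on GRCh38.p14 were searched for 7 of the members (PLAU, PLAUR, SERPINE2, MMP14, MMP15, TIMP1 and TIMP3). PLAT was left out of this search, and TIMP2 had no window in the reference used. MMP15, the called member among them, is shown next to TIMP1, a detected member with the smallest difference, as the 250 bases before the transcription start on the plus strand. Capitals mark the letters GGGCGG, a GC box, on either strand.
MMP15, chr16:58025504-58025753, plus strand: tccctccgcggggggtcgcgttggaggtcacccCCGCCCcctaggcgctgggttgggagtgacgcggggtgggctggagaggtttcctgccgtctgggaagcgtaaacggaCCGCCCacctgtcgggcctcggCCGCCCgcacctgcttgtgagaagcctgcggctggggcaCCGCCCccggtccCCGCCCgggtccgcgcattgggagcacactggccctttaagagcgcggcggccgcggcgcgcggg
TIMP1, chrX:47582186-47582435, plus strand: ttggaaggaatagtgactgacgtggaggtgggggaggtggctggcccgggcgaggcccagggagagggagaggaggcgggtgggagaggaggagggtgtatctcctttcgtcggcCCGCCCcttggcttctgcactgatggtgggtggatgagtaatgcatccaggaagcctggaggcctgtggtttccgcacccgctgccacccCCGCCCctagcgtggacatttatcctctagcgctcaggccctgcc
The MMP15 window held 5 GC box matches and had a GC content of 74.8%, the TIMP1 window 2 matches and 64.8%. The window of TIMP3, which was not detected, also held 5 matches (72.4%). A window of SERPINE2, which was not called, held 2 (75.2%), and that of PLAUR held 0 (63.2%). Of all 35116 RefSeq windows of that length 42.64% held at least 1 match, and their median GC content was 58.0%. The TATA box, searched as the letters TATAAA, was in neither window nor in those of the other members searched, beside 10.72% of all windows. The AP-1 motif, searched as TGANTCA, was found once, in the window of PLAUR, beside 6.57% of all windows. Both strands were searched in each case, and a match is a description of the letters only.

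The TIMP1 and TIMP2 probes lay at least 7.84 on the log2 scale over the detection limit of their array. TIMP2, which both inhibits metalloproteinases and takes part in pro-MMP2 activation, had log2 levels (NM_003255) in sictrl of 6.84 on A1, 6.88 on M2, 7.10 on A2 and 7.30 on A3. In siUCA1 it had 7.50 on A1, 7.31 on M2, 7.69 on A2 and 7.47 on A3. The conditions did not overlap, but sictrl A3 and siUCA1 M2 were only 0.006 apart. The log2 difference was 0.46 (standard error 0.13, 95% interval 0.16 to 0.76) with a limma adjusted p = 0.0591, which missed the threshold, and an exact permutation p = 0.0286. Without sictrl A3 it was 0.55 (adjusted p = 0.0255), and with the remaining surface trend removed 0.35 (adjusted p = 0.132). With the percentile taken over the probes detected on all arrays the adjusted p was 0.0387, so that TIMP2 fell on either side of the threshold.

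TIMP1, the broad inhibitor of secreted metalloproteinases, did not differ beyond the spread between arrays within a condition. Its log2 level (NM_003254) in sictrl was 5.44 on A1, 5.33 on M2, 5.55 on A2 and 5.74 on A3, and in siUCA1 5.52 on A1, 5.48 on M2, 5.73 on A2 and 5.81 on A3. The conditions overlapped over most of their range. Between arrays of the same name TIMP1 was higher in siUCA1 by 0.075 (A1), 0.141 (M2), 0.188 (A2) and 0.07 (A3). With the replicate name as a block its standard error was 0.078 and its limma adjusted p was 0.364. The log2 difference was 0.12 (standard error 0.12, limma adjusted p = 0.584, exact permutation p = 0.314), and its 95% interval of -0.16 to 0.40 leaves room for a change in either direction. TIMP3, the matrix-bound inhibitor, was not detected.

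Pairs of members with related roles were compared by the log2 difference between them on each array. Of 10 such pairs only 2 had both members measured, PLAT with SERPINE2 and TIMP1 with TIMP2, and neither had an adjusted p under 0.05 over the 2. The smallest p this test allows is 0.0286, so that over 2 pairs an adjusted p under 0.0571 needs both pairs at that minimum. The difference between PLAT and SERPINE2 was larger in siUCA1 by 0.07 (95% interval -0.89 to 1.04, two-sided exact permutation p = 0.914, adjusted p = 0.914), so that a difference within that interval was not resolved, and SERPINE2 entered the pair through its detection in siUCA1. TIMP1 minus TIMP2 was -1.52 in sictrl and -1.86 in siUCA1, a change of -0.34 (standard error 0.08, 95% interval -0.54 to -0.14, exact permutation p = 0.0286, adjusted p = 0.0571). The 4 siUCA1 arrays were thus all below the 4 sictrl arrays for this pair, which had the smallest p the test allows. When detection on all 8 arrays was required it was the 1 pair left and was counted as differing, since there was no adjustment.

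The other genes of extracellular and lysosomal proteolysis were taken from 6 lists of 113 genes, of which 111 were on the array and 53 were tested. Of these 53, 6 were called higher and 3 lower (17%, beside 11.6% of all genes), and their median log2 difference was 0.24 beside 0.03 over all genes. With 1 array left out the count of 9 became 5 without sictrl M2, sictrl A2 or siUCA1 A2, and 17 without sictrl A3. It was 5 (3 higher) under median scaling, 4 (all higher) under normexp and 0 without the detection filter. With the surface trend removed it was 14 (10 higher), with array weights 31 (24 higher) and with the replicate name as a block 19 (15 higher). Of the 50 detected on all 8 arrays, 6 were called higher and 2 lower, without CST6. The 9 genes called came from 5 of the lists. In the plasminogen system 9 of 19 genes were tested, and VLDLR and MRC2 were called. VLDLR, an endocytic receptor that takes up protease and serpin complexes, rose by 1.13 (standard error 0.23, adjusted p = 0.0169). MRC2, the collagen receptor that associates with PLAUR, fell by 0.89 (standard error 0.22, adjusted p = 0.0342). Without the remaining surface trend MRC2 was not called (adjusted p = 0.0654), and of the 8 fits that left out 1 array it was called in those without sictrl M2 and without sictrl A3. VLDLR was called in 6 of these fits and not without sictrl M2 (adjusted p = 0.0521) or sictrl A2 (adjusted p = 0.0575).

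Among 21 other MMPs 7 were tested and 1 was called. MMP28, which encodes epilysin, rose by 0.79 (standard error 0.19, adjusted p = 0.0305), and it was called in 3 of the 8 fits without 1 array, those without sictrl A1, sictrl A3 or siUCA1 A1. With the slide row as a block its adjusted p was 0.0511. MMP9, a gelatinase, was higher by 0.33 without passing (standard error 0.12, adjusted p = 0.108), and MMP2, the substrate of the MMP14 and TIMP2 complex, was detected on no array. Of 10 inhibitors, activators and partners of MMPs 7 were tested. PCSK5, a proprotein convertase, rose by 1.21 (standard error 0.21, adjusted p = 0.0103), and PCSK7, another convertase, fell by 0.45 (standard error 0.10, adjusted p = 0.0225). PCSK5 was called in 8 of the 8 fits without 1 array, and PCSK7 in 5, all but those without sictrl M2, sictrl A2 or siUCA1 A2. FURIN, the convertase that cleaves the membrane-type MMPs, had a log2 difference of -0.28 (adjusted p = 0.449), and RECK, a membrane inhibitor of MMPs, of 0.26 (adjusted p = 0.46).

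Among ADAM and ADAMTS genes 10 of 28 were tested. ADAMTS8 rose by 1.42 (standard error 0.21, adjusted p = 0.00534), the largest rise of the proteolysis genes tested in the main fit. Of 19 cathepsins and cystatins 13 were tested and 3 were called. CTSL, a lysosomal cysteine protease, rose by 0.66 (standard error 0.09, adjusted p = 0.00388), and CTSK, a collagen-degrading one, by 0.61 (standard error 0.12, adjusted p = 0.0174). CST6, the cystatin that inhibits such cathepsins, fell by 1.79 (standard error 0.33, adjusted p = 0.0124) and was above background on 3 of 4 siUCA1 arrays. It passed the detection filter through sictrl only, the condition where it was high, so its direction was fixed in part by the filter, and it was not tested where detection on all 8 arrays was required. ADAMTS8 and CTSL were called in 8 of the 8 fits without 1 array, and CTSK in 5, all but those without sictrl M2, siUCA1 M2 or siUCA1 A2. Under normexp, ADAMTS8 (0.92) was called, with a smaller rise than VLDLR (1.16) and PCSK5 (1.115). CTSL (0.61, adjusted p = 0.0863), CTSK (0.29) and CST6 (-0.76) did not pass under normexp, nor did MRC2 (-0.40), MMP28 (0.53) and PCSK7 (-0.31). Under median scaling CTSL, CTSK, MMP28 and PCSK7 did not pass, and without the detection filter none of the 9 did. Of 16 pericellular serine proteases and their inhibitors 7 were tested and 0 were called by limma. Their log2 differences ranged from -0.73 (KLK6) to 0.67 (SPINT2). At an unadjusted limma p under 0.05 there were 2 of the 7, KLK6 and PRSS8 (-0.43), beside 4264 of all 15454 genes tested.

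**Figure D4:**
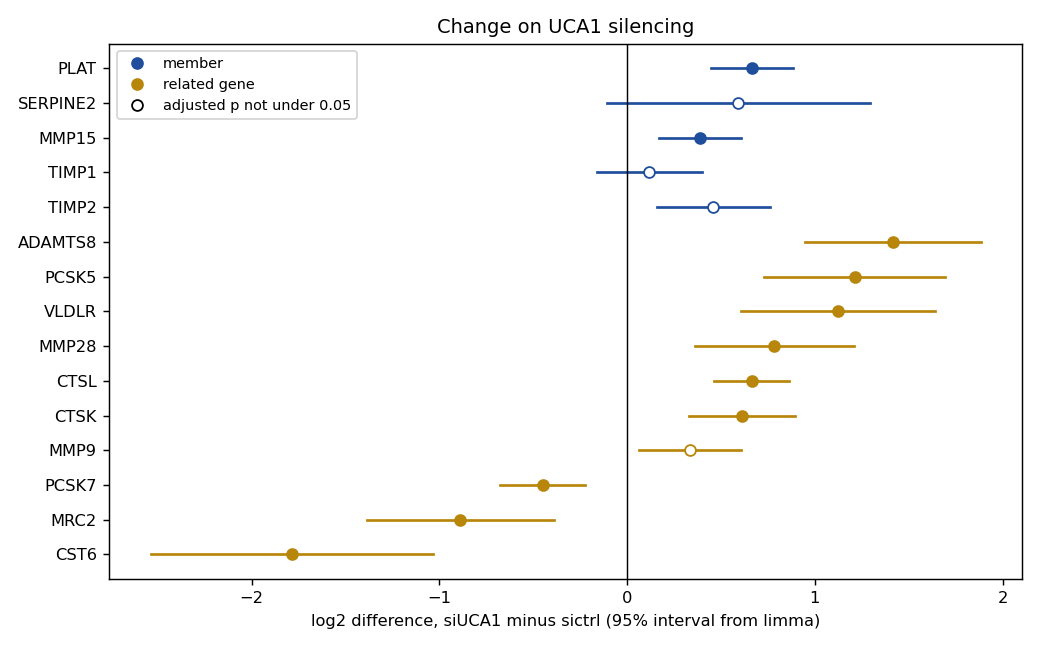
Log2 difference between siUCA1 and sictrl (x axis) with its 95% interval from limma, for the 5 members tested (blue), the 9 related genes called and MMP9 (ochre). Filled points have an adjusted p under 0.05. PLAT and MMP15 are filled and above 0 among the members, the interval of TIMP2 is above 0 without passing the adjustment, and PCSK7, MRC2 and CST6 are the related genes below 0.

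The genes whose profile over the 8 arrays was closest to that of a called member were found by the root mean square of the difference of mean-centred log2 values, over 11987 other genes with a RefSeq symbol. For PLAT these were SESTD1 (0.068) and KCNJ2 (0.072), against a median of 0.399 over all genes, and their own log2 differences were 0.70 and 0.68. For MMP15 they were PLEKHH3 (0.038) and CHD2 (0.042), against a median of 0.298, with log2 differences of 0.32 and 0.44. The measure uses the same 8 arrays as the comparison, so that genes with a like difference are near each other by construction.

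Across 17 changes in processing and 8 fits without 1 array, the 4 members detected on all 8 arrays were higher in siUCA1 wherever they were tested. SERPINE2 was so too, but the detection filter bears on its direction. PLAT ranged from 0.43 to 0.70 and was called in 14 of the 17 and in 8 of the 8. MMP15 ranged from 0.29 to 0.46 and was called in 13 and in 2. TIMP2 ranged from 0.35 to 0.55 and was called in 4 and in 1. TIMP1 and SERPINE2 were called in none, at adjusted p from 0.204 and 0.0677 upwards, respectively. With no array left out, TIMP1 came to 0.02 under median scaling, the smallest difference of any member.

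**Figure D5:**
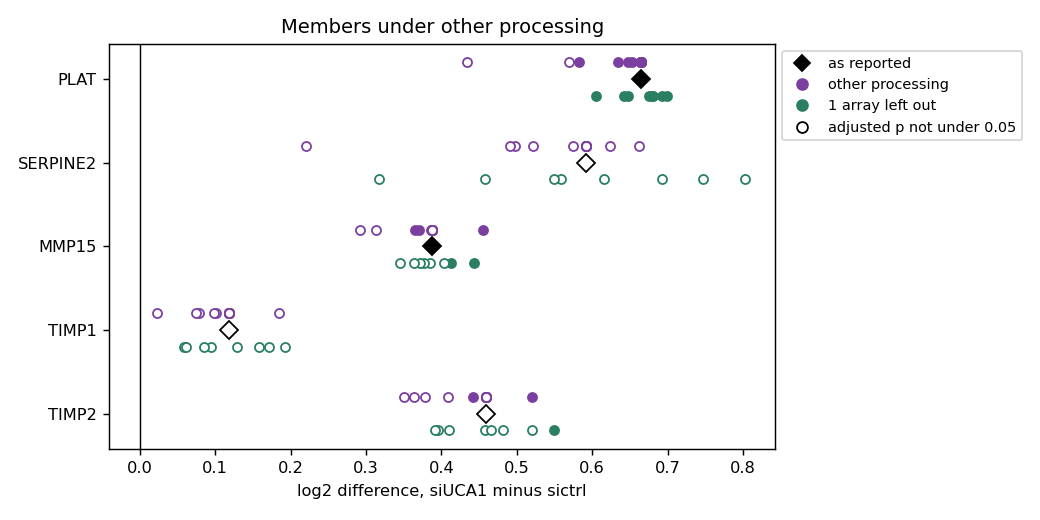
Log2 difference between siUCA1 and sictrl (x axis) of the 5 members tested, as reported (black diamonds), under other processing (purple) and with 1 array left out (green). Filled points have an adjusted p under 0.05. All points lie above 0, PLAT is filled in nearly all settings, MMP15 in about as many purple settings but in 2 green ones, and TIMP1 and SERPINE2 in none.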

How the data were processed

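RNA of OAW42-R cells was measured on 8 one-color arrays, 4 per condition. The authors deposited Agilent Feature Extraction 10.7.3.1 output, named in the submitters' processing notes, whose intensity values are background-subtracted and detrended on a linear scale but not normalized between arrays. The deposited series table held the same intensity values. The log2 values here were computed from the deposited intensity by subtracting each array's 75th percentile over non-control spots. Control and outlier spots were left out, spots of 1 probe were averaged, and the brightest probe past the detection filter stood for its gene. Accessions were named through RefSeq (GRCh38.p14), which matched 31104 of 58201 probes. Conditions were compared with limma 3.58.1 (lmFit and eBayes, R 4.3.3) over all 15454 genes (19045 kept probes), and single genes also with two-sided exact permutation tests. The fit was checked on simulated data. Figures were drawn with matplotlib. The paper describes the replicates as independent experiments, and the number of arrays limits the precision.

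The members, the related lists and the cell type markers were chosen with earlier results of these data known. Named are the members, every related gene called, the partners PLG, MMP2 and MMP9 (a further one is not reported here), and the 2 genes with the nearest profile to each called member. KLK6, PRSS8, SPINT2, FURIN and RECK were chosen after their values were seen. The alternatives in scaling, background, detection, probe choice, variance model, blocks and left-out arrays are given below with their effect. For the related genes they were chosen after seeing the data. The siRNA sequences and the other array experiment of the paper were not used here.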

Additional observations from a re-analysis of the deposited data

Results flagged for a closer look

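Within each condition the 4 arrays of 17 genes (the 5 members tested, PLAU, UCA1, the 9 related genes called and MMP9) were searched for 1 array far from the other 3 (34 sets, by Dixon's ratio of the gap to the whole range). Chance alone gives about 1 such array in 20 sets, and 4 were found, all in related genes and none in the members. VLDLR was at 5.19 on siUCA1 A1 and at 4.40 to 4.50 on the other siUCA1 arrays (ratio 0.878), and without siUCA1 A1 its log2 difference was 0.94 (limma adjusted p = 0.0187). CST6 was at -0.72 on siUCA1 A1 and at -2.32 to -2.09 on the others (ratio 0.854), and without that array its log2 difference was -2.15 (adjusted p = 0.000604). PCSK5 was at 2.85 on sictrl A3 and at 1.95 to 2.09 on the others (ratio 0.844), and without it the difference was 1.41 (adjusted p = 0.00366). These arrays, siUCA1 A1 and sictrl A3, had the largest surface trend. With the remaining trend removed the log2 difference was 1.138 for VLDLR (limma adjusted p = 0.0209), against 1.125 as reported. It was -1.759 for CST6 (adjusted p = 0.0122), against -1.786, and 1.166 for PCSK5 (adjusted p = 0.01), against 1.213. The part of the trend in the single array values was not tested. MMP28 was at -1.11 on sictrl A1 and at -0.43 to -0.33 on the others (ratio 0.876), and without that array its difference was 0.60 (adjusted p = 0.0325).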

How the results depend on the processing

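The number of DEGs was 535 under median scaling, 380 under normexp, 76 without the detection filter and 4599 with array weights, against 1788 as reported, and 760 (without sictrl A2) to 2290 (without siUCA1 A1) with 1 array left out. The number of members called was 0 under median scaling, 0 under normexp, 0 without the filter and 1 (PLAT) with the slide row as a block, against 2, and 1 to 3 with 1 array left out. The number of related genes called was 5 under median scaling, 4 under normexp, 0 without the filter, 14 with the surface trend removed, 31 with array weights and 19 with the replicate block, against 9, and 5 to 17 with 1 array left out. The number of pairs of members that differed rose from 0 to 1 (TIMP1 with TIMP2) when detection on all 8 arrays was required, because only 1 pair remained to adjust over. Of the 16 genes followed through the alternatives (the 5 members tested, UCA1, the 9 related genes called and MMP9) none changed sign. PLAU, which was not among them, was at 0.30 over all arrays, -0.02 without sictrl A1 and 0.55 without siUCA1 A2, and passed in neither fit. The cause of the other changes was not tested.

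Same-named arrays of the conditions had correlations of their deviations of 0.038 (A1), 0.278 (M2), 0.216 (A2) and 0.127 (A3), so that 3 of the 4 were over 0.1 and 1 was not. Of the sictrl arrays 2 of 4, and of the siUCA1 arrays 3 of 4, correlated best with the array of their own name. Arrays of different names had correlations from -0.311 to 0.205, with a median of -0.077, and the 4 same-named ones lay above that median. The labels do not say that a name marks a shared experiment, and the names were not taken as pairs in the main fit. With the replicate block 1727 genes were called, PLAT and MMP15 remained the 2 members called, and SERPINE2 was at 0.59 (standard error 0.15, limma adjusted p = 0.0677). With 1 array left out, which was added after seeing the data, the change of TIMP1 minus TIMP2 was -0.41 to -0.30 at an exact permutation p of 0.0571, the smallest that 3 arrays against 4 allow when the smaller tail is doubled, and the number of pairs that differed was 0 in each. For dim probes the background limits what can be measured, as for PLAU, PLAUR, MMP14 and TIMP3.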

Other observations

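PLAU was highest on replicate A3 in both conditions, by at least 1.10 on the log2 scale over the next array. Of 15445 genes tested with values on all 8 arrays, 2242 (14.5%) were highest on A3 in both conditions, and 4 by as much as PLAU. These were TNFRSF10D, a decoy receptor of the death ligand TRAIL, C1S, a complement serine protease, CA8, a carbonic anhydrase-related protein, and the probe for NM_002284, with gaps of 1.33, 1.31, 1.28 and 1.11. They were named after their values were seen. The genes tested had passed the detection filter and PLAU had not. The count therefore does not tell how rare such a gap is among probes as dim as that of PLAU. SERPINE2, TIMP1 and MMP15 were also highest on A3 in both conditions, whereas PLAT was highest on M2 in sictrl. With the surface trend removed, the PLAU level was -0.49 on sictrl A3 and -0.70 on siUCA1 A3, beside -2.92 to -1.97 on the other arrays, and with normexp it was 0.04 and -0.43 beside -1.20 to -0.78. The PLAU probe had 1 spot per array, and no label tells how A3 differed.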
